A study of Mus musculus with 13 samples.

Results

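The loss of c-Rel in thymic pre-Tregs was examined in 5 of the 13 libraries of a mouse RNA sequencing series, all 5 being the pre-Treg libraries of that series. Cells were CD4 T cells of C57BL6/J mice carrying the Foxp3rfp reporter, taken from the thymus, enriched magnetically for CD4 and then sorted. The knockout group was cRel-/-Foxp3rfp (3 libraries, replicates 1 to 3) and the wild-type group was cRel+/+Foxp3rfp (2 libraries). De novo Tregs of the thymus, the Foxp3-expressing stage, with 2 cRel-/-Foxp3rfp and 2 cRel+/+Foxp3rfp libraries, were used where the effect in pre-Tregs was set against that of another stage. The sort gates, the ages and sexes of the mice and the number of animals behind each library are not stated in the labels, and the genotype label names no restriction of the allele to T cells.

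c-Rel, encoded by Rel, is a subunit of NF-kB. It is held in the cytoplasm of resting T cells by IkB proteins, and it enters the nucleus after the T cell receptor and CD28 are engaged. In the thymus it acts at the Foxp3 locus and is needed for normal Treg numbers. Pre-Tregs are CD4 thymocytes that have received strong receptor signals but do not yet make Foxp3 protein, and cytokines of the IL-2 family drive their conversion into Foxp3-expressing Tregs.

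Because c-Rel is a DNA-binding factor, the promoters of the genes that fell without it are shown first. Of the genes with the largest changes described below, 4 falling ones that also fell in de novo Tregs were selected by their adjusted p there (Lad1, Cd83, Wnt3 and Sdc4), and 3 of the 4 matched the RefSeq promoter table of build GRCm38.p6. Each sequence runs 5′ to 3′ on the gene's strand, from 250 bases before the annotated start to 50 after it. Capitals mark matches to GGNNNTTCC, a short form of the kB element, searched on both strands.
Lad1 (chr1:135818348-135818647, + strand): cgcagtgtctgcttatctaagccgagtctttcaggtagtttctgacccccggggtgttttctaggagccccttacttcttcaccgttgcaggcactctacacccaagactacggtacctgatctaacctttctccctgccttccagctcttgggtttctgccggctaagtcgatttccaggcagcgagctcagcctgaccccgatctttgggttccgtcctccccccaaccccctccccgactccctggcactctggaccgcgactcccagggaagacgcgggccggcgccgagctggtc
Wnt3 (chr11:103773925-103774224, + strand): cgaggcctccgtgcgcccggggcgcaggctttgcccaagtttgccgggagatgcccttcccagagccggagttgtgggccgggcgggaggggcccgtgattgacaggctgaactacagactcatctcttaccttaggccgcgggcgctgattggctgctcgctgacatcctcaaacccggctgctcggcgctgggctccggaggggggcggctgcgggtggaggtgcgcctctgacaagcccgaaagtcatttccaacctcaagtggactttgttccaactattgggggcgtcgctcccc
Sdc4 (chr2:164443139-164443438, − strand): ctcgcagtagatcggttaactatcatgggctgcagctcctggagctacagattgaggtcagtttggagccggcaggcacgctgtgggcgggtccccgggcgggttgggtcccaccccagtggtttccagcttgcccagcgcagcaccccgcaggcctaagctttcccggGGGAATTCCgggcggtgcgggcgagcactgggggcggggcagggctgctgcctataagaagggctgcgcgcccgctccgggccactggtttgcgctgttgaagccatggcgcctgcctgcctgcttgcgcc
The Sdc4 promoter held 1 match, GGGAATTCC on the gene's strand, and the Lad1 and Wnt3 promoters held 0. Of all 32851 promoters in the table, 18.5% held at least 1 match. A match describes letters in a window of 300 bases, and binding was not measured.

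Levels are given in CPM, the counts scaled to a fixed library size after TMM normalization. Differences are on the log2 scale, knockout over wild type, each with its standard error (SE). The words called, rose and fell are kept for genes at a Benjamini-Hochberg adjusted p under 0.05 in edgeR's quasi-likelihood test over all genes tested. Totals were 16133876, 29866696 and 16809052 counts in knockout libraries and 13656304 and 13698722 in wild-type libraries, so that 3 counts, taken as the floor, were worth 0.1 to 0.22 CPM. Markers of CD4 T cells summed to 14100, 16610 and 14390 CPM in knockout libraries and to 15720 and 14150 CPM in wild-type libraries, and all 15 were read in each library. Of the CD8 chains, Cd8a stood between 3.67 and 6.46 CPM and Cd8b1 between 23.0 and 39.9 CPM. The 13 markers of CD8 T and NK cells summed to 346, 469 and 340.5 CPM in knockout libraries and to 442 and 528.5 CPM in wild-type libraries.

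Knockout replicate 2 stood apart from the other libraries. Relative to the other libraries, its values fell with gene length, by 0.103 on the log2 scale for each doubling of length. On that measure the slopes of the other 4 libraries lay between 0.0113 and 0.0320. The reference for those 4 includes knockout replicate 2, so their upward slopes in part mirror its own. In the shortest length decile of the tested genes (median 489 bases) knockout replicate 2 was 0.20 above the mean of the other 4 libraries on the log2 scale. In the longest decile (median 10588 bases) it was −0.34. It differed at least 2-fold from knockout replicate 1 for 21.4% of genes and from knockout replicate 3 for 12.9%. The share was 7.05% between knockout replicates 1 and 3 and 6.80% between the wild-type libraries. Between knockout replicates 1 and 3 and the wild-type libraries it ran from 7.48% to 10.7%. Ribosomal protein genes took 1.13% of the counts of knockout replicate 2 and 0.589% to 0.749% of the counts of the others. Mitochondrially encoded genes took 0.369%, against 0.490% to 0.928%. The effects below are therefore given for the 4 libraries without knockout replicate 2 and for all 5 libraries.

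**Figure D1:**
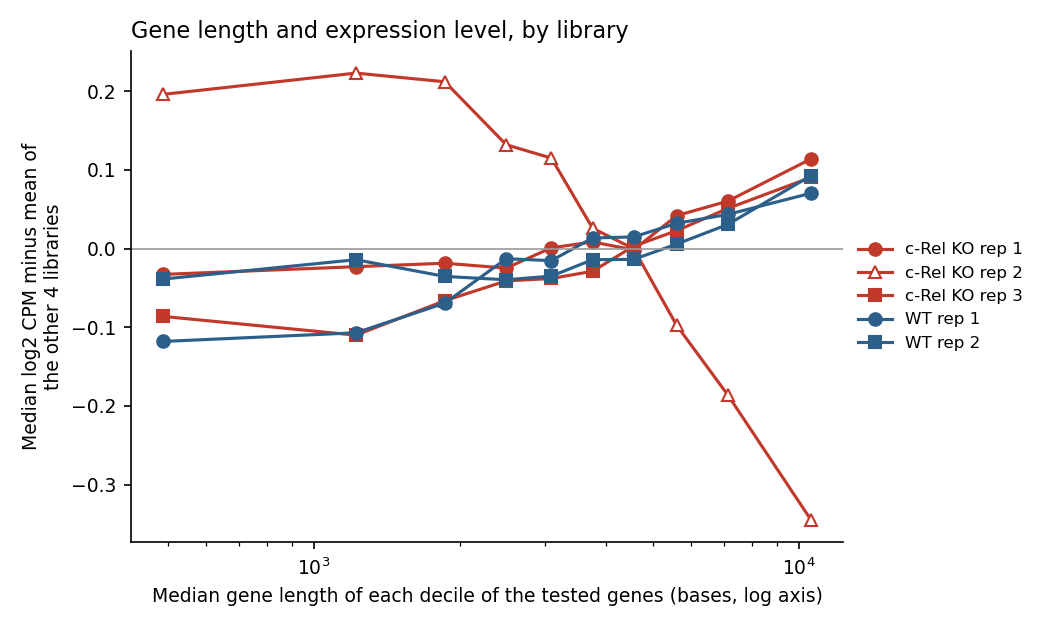
Median difference of each library's log2 CPM from the mean of the other 4 libraries, for deciles of the tested genes ordered by deposited gene length (bases, log axis). Knockout replicate 2 (open triangles) runs downward from 0.20 for the shortest genes to −0.34 for the longest, while the other 2 knockout and the 2 wild-type libraries run slightly upward together. The mean that the others are set against includes knockout replicate 2.

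With all 5 libraries, edgeR called 0 of 14746 genes (0% in either direction). The smallest adjusted p was 0.144, for St8sia6, and 969 genes had an unadjusted p under 0.05. On the same 5 libraries limma-voom called 0 genes and DESeq2 called 88 (45 higher and 43 lower). Without knockout replicate 2, edgeR called 64 of 14303 genes, 33 higher in the knockout (0.231% of the genes tested) and 31 lower (0.217%), of which 30 and 29 differed at least 2-fold. The common biological coefficient of variation was 0.284 with all 5 libraries and 0.163 without knockout replicate 2. Counts of calls rest on which libraries enter: leaving out a further library, which leaves 1 sample in an arm assumed to vary like the others, gave 268 calls without knockout replicate 1, 380 without knockout replicate 3, 201 without wild-type replicate 1 and 383 without wild-type replicate 2.

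The left-out library nevertheless lay on the same side as the other knockout libraries for nearly all called genes. For all 31 genes that fell in the fit without it, all 3 knockout libraries were below both wild-type libraries, and for 30 of the 33 that rose all 3 were above. The exceptions were Notch1, Atp8b4 and Spic. Over all 14746 genes, knockout and wild-type libraries did not overlap for 1966 genes in the higher direction (13.3%) and for 2017 in the lower direction (13.7%). The called genes were picked on the other 4 libraries, so these shares are not the rate for knockout replicate 2 alone. The median log2 fold change of all genes was 0.03 with 5 libraries and −0.00216 with 4.

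Lad1, which encodes ladinin, a protein of epithelial anchoring filaments, had the smallest adjusted p of the 4-library fit. It stood at 52.0, 147 and 75.5 CPM in knockout pre-Tregs and at 448 and 508 CPM in wild-type pre-Tregs. Every knockout library was far below both wild-type libraries, and replicate 2 was the highest of the 3. The log2 fold change was −2.91 (SE 0.20, adjusted p = 0.000559 by edgeR) without knockout replicate 2 and −2.39 (SE 0.39, adjusted p = 0.307) with it.

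St8sia6, which encodes a sialyltransferase that adds alpha-2,8-linked sialic acid to glycoproteins, had even values within each genotype. It stood at 20.2, 15.1 and 14.8 CPM in knockout libraries and at 73.3 and 73.8 CPM in wild-type libraries, and knockout replicate 2 did not stand out. It fell by 2.07 on the log2 scale without that library (SE 0.19, edgeR adjusted p = 0.00443) and differed by −2.14 with it (SE 0.22, adjusted p = 0.144). Of the 14 sialyltransferase genes tested it was the one that was called, against 0.217% of all genes called lower and 0.231% called higher.

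Among secreted and surface molecules, Wnt3, a ligand of the Wnt pathway, stood at 0.960, 0.565 and 0.523 CPM in knockout libraries and at 5.64 and 12.4 CPM in wild-type libraries. Its log2 fold change was −3.59 without knockout replicate 2 (SE 0.50, edgeR adjusted p = 0.0201) and −3.72 with it. Cd83, an immunoglobulin-superfamily protein of activated lymphocytes and dendritic cells, stood at 17.9, 20.6 and 24.5 CPM in knockout libraries and at 55.2 and 99.0 CPM in wild-type libraries. Its log2 fold changes were −1.86 (edgeR adjusted p = 0.0232) and −1.88. Nrp2, a co-receptor for semaphorins and VEGF, reached 4.80, 8.19 and 11.2 CPM in knockout libraries and 28.3 and 57.6 CPM in wild-type libraries. Sdc4, the heparan sulphate proteoglycan whose promoter holds the kB match shown above, was at 1.80, 2.15 and 2.04 CPM in knockout libraries and at 7.80 and 10.3 CPM in wild-type libraries. The groups did not overlap for any of these 4 genes, as their choice among the genes of largest change required. For all 4 wild-type replicate 2 was the higher wild-type library. Nrp2 and Sdc4 fell, with log2 fold changes of −2.42 and −2.23 without knockout replicate 2 (edgeR adjusted p = 0.0423 and 0.0265) and differed by −2.41 and −2.17 with it.

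Ikzf2, which encodes Helios, an Ikaros-family factor of thymic Tregs, stood at 198, 116 and 168 CPM in knockout libraries and at 439 and 599 CPM in wild-type libraries. Knockout replicate 2 was the lowest, and Ikzf2 is a long gene (11613 bases). It fell (log2 fold change −1.50) without that library (SE 0.18, edgeR adjusted p = 0.0201), differed by −1.69 with it (SE 0.26, adjusted p = 0.307), and differed by −1.61 when all 5 libraries were fitted with an offset for each library's trend on gene length. Ptger4, a prostaglandin E2 receptor, fell by 0.85 (SE 0.15, edgeR adjusted p = 0.0450) and differed by −0.79 with all libraries.

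Tspan13, a tetraspanin, was among the more abundant genes that fell. It stood at 491, 387 and 422 CPM in knockout libraries and at 947 and 1286 CPM in wild-type libraries, with a log2 fold change of −1.29 (edgeR adjusted p = 0.0208) without knockout replicate 2 and −1.37 with it. Ctsw, which encodes the lymphocyte protease cathepsin W, moved with the library chosen: it stood at 106, 248 and 141 CPM in knockout libraries and at 276 and 335 CPM in wild-type libraries, giving −1.31 (edgeR adjusted p = 0.0201) without knockout replicate 2 and −0.89 with it. Ctsw is also 1 of 13 markers of CD8 T and NK cells. No other of the 13 was called, against 0.217% of all genes called lower and 0.231% called higher. The 13 summed to 346, 469 and 340.5 CPM in knockout libraries and to 442 and 528.5 CPM in wild-type libraries. Bcl2a1d, an anti-apoptotic member of the A1 family, fell by 1.51 (edgeR adjusted p = 0.0355) and differed by −0.98 with all libraries. Its near-identical paralogs could split or share these reads, so its level is uncertain. Car8, a carbonic anhydrase relative without catalytic activity, Dgat2, an enzyme of triacylglycerol synthesis, and Dnah12, an axonemal dynein heavy chain, fell, with log2 fold changes of −3.64, −2.30 and −1.70, edgeR adjusted p of 0.0106, 0.0256 and 0.0450, and differed by −3.05, −1.92 and −2.0 with knockout replicate 2 included.

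Several further falling genes, chosen here after their values were seen, were well expressed. Tmem123, which encodes a cell-surface mucin, stood at 254, 155 and 206 CPM in knockout libraries and at 512 and 602 CPM in wild-type libraries. Colq, the collagen tail of acetylcholinesterase, stood at 68.3, 132 and 95.3 CPM in knockout libraries and at 239 and 268 CPM in wild-type libraries. Their log2 fold changes were −1.28 and −1.63 without knockout replicate 2 and −1.44 and −1.36 with it. At the low end, Bmper, a regulator of BMP signalling, had 0, 9 and 0 counts in knockout libraries and 18 and 18 counts in wild-type libraries, so its fitted fold change is no measure of size.

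Mir155hg, the host transcript of miR-155, fell in knockout pre-Tregs, and Mir22hg, the host transcript of miR-22, rose. The 2 mature miRNAs are shown because the host transcripts moved in opposite directions. They are the RefSeq sequences of build GRCm38.p6, with the seed (bases 2 to 8) in capitals.
mmu-miR-155-5p (chr16:84714143-84714165, + strand): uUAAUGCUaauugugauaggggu
mmu-miR-22-3p (chr11:75463772-75463793, + strand): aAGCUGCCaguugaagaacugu
The seeds differ, and the mature miRNAs themselves were not measured: the deposited rows for Mir155 and Mir22 held 0 counts over the 5 libraries. Mir155hg had 1.92, 0.812 and 1.16 CPM in knockout libraries and 8.69 and 10.4 CPM in wild-type libraries, and the groups were far apart. Its log2 fold change was −2.62 (SE 0.36, edgeR adjusted p = 0.0201) without knockout replicate 2 and −2.89 with it. Mir22hg had 6.24, 5.90 and 9.25 CPM in knockout libraries and 1.78 and 0.80 CPM in wild-type libraries, with log2 fold changes of 2.58 (SE 0.44, edgeR adjusted p = 0.0427) and 2.46.

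**Figure D2:**
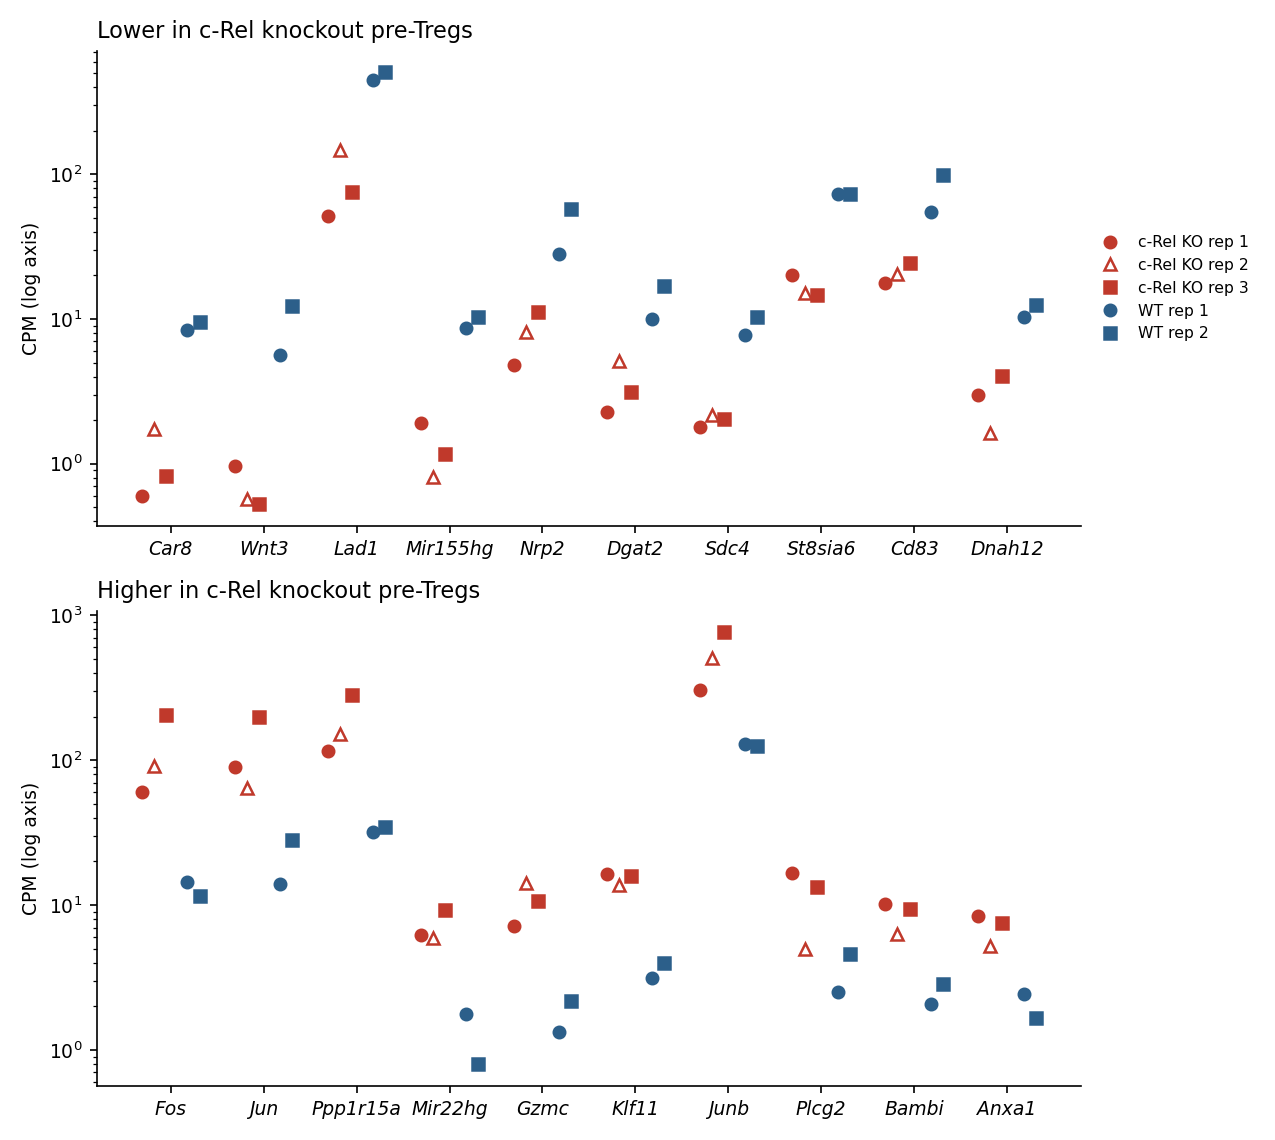
CPM (log axis) in each knockout (red) and wild-type (blue) library for the 10 falling genes (upper panel) and the 10 rising genes (lower panel) with the largest log2 fold change among genes called without knockout replicate 2. Knockout replicate 2 is the open triangle. In every gene the 3 knockout libraries lie on 1 side of both wild-type libraries, as the choice of genes required.

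Among the genes that rose most were immediate-early genes, which are induced within minutes by receptor signals and by cell stress. Fos, a subunit of the AP-1 transcription factor, stood at 59.9, 91.8 and 206 CPM in knockout libraries and at 14.5 and 11.5 CPM in wild-type libraries. Its partner Jun stood at 89.3, 64.0 and 200 CPM in knockout libraries and at 14.0 and 28.1 CPM in wild-type libraries. Junb, another AP-1 subunit, stood at 305, 507 and 764 CPM in knockout libraries and at 129 and 126 CPM in wild-type libraries. Knockout replicate 3 was the highest library for all 3 genes. No knockout library overlapped the wild type, as their choice among the genes of largest change required. Without knockout replicate 2 the log2 fold changes were 3.36 (SE 0.47) for Fos, 2.78 (SE 0.39) for Jun and 2.07 (SE 0.34) for Junb, with edgeR adjusted p of 0.0201, 0.0201 and 0.0359, and with it they were 3.20, 2.48 and 2.05.

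Ppp1r15a, which encodes the stress-induced phosphatase subunit GADD34, stood at 115, 152 and 283 CPM in knockout libraries and at 31.8 and 34.5 CPM in wild-type libraries, again with knockout replicate 3 highest. It rose by 2.59 (SE 0.34, edgeR adjusted p = 0.0201) without knockout replicate 2 and differed by 2.47 with all libraries (adjusted p = 0.307). Klf11, a Kruppel-like repressor, stood at 16.3, 13.8 and 16.0 CPM in knockout libraries and at 3.12 and 4.0 CPM in wild-type libraries. Klf11 rose by 2.18 (SE 0.27, edgeR adjusted p = 0.0201) without knockout replicate 2 and differed by 2.11 with all libraries (adjusted p = 0.307). Klf4, chosen after its values were seen, had 48, 53 and 49 counts in knockout libraries and 4 and 4 counts in wild-type libraries. Ptgs2, which encodes the inducible cyclooxygenase and was also chosen after its values were seen, had 30, 14 and 72 counts in knockout libraries and 0 and 0 in wild-type libraries, at least 9.80-fold higher on the mean of the 3 knockout libraries against a floor of 3 counts per library.

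Of 30 genes on a list of early T cell receptor response, these 3 AP-1 genes were called and rose, against 0.231% of all genes. Of the 30, 0 were called and fell, against 0.217% of all genes. The list's median log2 fold change was 0.16 with all libraries and 0.01 without knockout replicate 2, against 0.03 and −0.00216 for all genes. The libraries did not overlap for 8 of the 30 in the higher direction, against 13.3% of all genes, and for 4 in the lower direction, against 13.7% of all genes. Among the lower ones was Egr2, a factor induced through calcium and NFAT, with 39.8, 56.7 and 58.0 CPM in knockout libraries and 82.0 and 76.8 CPM in wild-type libraries (−0.70 without knockout replicate 2, −0.62 with it, not called). Nr4a1 and Cd5, both read-outs of receptor signal strength, overlapped between the groups. Nr4a1 stood at 418, 958 and 672 CPM in knockout libraries and at 606 and 552 CPM in wild-type libraries, and Cd5 at 635, 1367 and 837 CPM in knockout libraries and at 766 and 711 CPM in wild-type libraries, the highest value of each being that of knockout replicate 2.

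Early-response genes are also induced while tissue is dissociated. The list of dissociation and heat shock genes does not hold Fos, Jun, Junb, Ppp1r15a or Klf4. It had 0 of 13 tested members called, and a median log2 fold change of 0.05 with all libraries and −0.05 without knockout replicate 2. Its sums were 3499, 4332 and 4071 CPM in knockout libraries and 3384 and 4346 CPM in wild-type libraries. The part of dissociation in the AP-1 result was not tested. In de novo Tregs Fos had 24.1 and 57.8 CPM in knockout and 185 and 24.0 CPM in wild-type libraries, and Junb had 325 and 342 CPM in knockout and 658 and 376 CPM in wild-type libraries. Jun had 153 and 250.5 CPM in knockout and 191 and 180.4 CPM in wild-type libraries there. The wild-type pair was thus unequal for Fos and Junb and nearly equal for Jun.

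Tnfaip3 encodes A20, a ubiquitin-editing inhibitor of NF-kB signalling and an NF-kB target. It stood at 349, 272 and 341 CPM in knockout libraries and at 174 and 182 CPM in wild-type libraries. It rose by 0.96 (SE 0.14, edgeR adjusted p = 0.0232) without knockout replicate 2 and differed by 0.85 (SE 0.19, adjusted p = 0.552) with it. It was the 1 called gene among 33 NF-kB subunits and regulators, against 0.231% of all genes called higher. The median of the 33 was −0.04 with all libraries and −0.03 without knockout replicate 2.

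Rel itself, the targeted gene (chr11:23736847-23770970, − strand, in the deposited coordinates on GRCm38), stood at 57.2, 54.7 and 67.0 CPM in knockout libraries and at 106 and 102 CPM in wild-type libraries. The groups were apart by −0.74 without knockout replicate 2 (SE 0.15, edgeR adjusted p = 0.0685) and −0.80 with it (SE 0.18, adjusted p = 0.552). The count covers the whole gene, deleted or retained exons alike, and so is no check of the genotype. Birc3, an inhibitor of apoptosis and regulator of NF-kB signalling, stood at 129, 138 and 136 CPM in knockout libraries and at 221 and 212 CPM in wild-type libraries (−0.71 without knockout replicate 2, edgeR adjusted p = 0.0666, and −0.69 with it). The other subunits overlapped between the groups: without knockout replicate 2 the log2 fold change was −0.21 for Nfkb1, −0.28 for Nfkb2, −0.00335 for Rela and 0.26 for Relb, and 0.26 for the inhibitor Nfkbia. With all libraries the values were −0.20 for Nfkb1, −0.04 for Nfkb2, 0.18 for Rela, 0.69 for Relb and 0.38 for Nfkbia.

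Among other genes that rose, Gzmc, which encodes granzyme C, stood at 7.20, 14.3 and 10.6 CPM in knockout libraries and at 1.34 and 2.18 CPM in wild-type libraries. It rose by 2.34 (edgeR adjusted p = 0.0382) without knockout replicate 2 and differed by 2.60 with it. Its reads could be shared with neighbouring granzyme genes. Il12rb2, a chain of the IL-12 receptor, had 12.6, 7.56 and 12.3 CPM in knockout libraries and 3.56 and 3.85 CPM in wild-type libraries. Il12rb2 rose by 1.75 (edgeR adjusted p = 0.0297) without knockout replicate 2 and differed by 1.54 with it. Bambi, a decoy receptor of the TGF-beta family, Anxa1, which encodes annexin A1, and Plcg2, a phospholipase of antigen receptor signalling in B cells, rose by 1.99, 1.95 and 2.07, with edgeR adjusted p of 0.0354, 0.0484 and 0.0308. With knockout replicate 2 these were 1.81, 1.77 and 1.71, and that library was the lowest knockout library for all 3. Notch1, the receptor of T lineage commitment, was chosen after its values were seen. It was called without knockout replicate 2 (1.00, edgeR adjusted p = 0.0423) and differed by 0.66 with it, but the libraries overlapped, with 222, 80.7 and 218 CPM in knockout libraries and 93.8 and 126 CPM in wild-type libraries.

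Markers of other cell types were read in the same libraries. Of 21 tested markers of myeloid and dendritic cells 17 lay above 0, the median being 1.17 with all libraries and 1.40 without knockout replicate 2. The libraries did not overlap for 9 in the higher and 1 in the lower direction, against 13.3% and 13.7% of all genes, and 0 were called. Their summed level was 496, 498 and 518 CPM in knockout libraries and 241 and 342 CPM in wild-type libraries. Cd74, the MHC class II invariant chain, was the most abundant of them, with 207, 308 and 300 CPM in knockout libraries and 129 and 150 CPM in wild-type libraries. Clec9a was at 0 in all libraries, and Csf1r, the macrophage growth factor receptor, was at 6.24, 0.141 and 2.85 CPM in knockout libraries and at 0 and 1.16 CPM in wild-type libraries. Spic, a macrophage transcription factor, had 44, 0 and 21 counts in knockout libraries and 0 and 0 in wild-type libraries.

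B cell markers summed to 286, 243 and 265 CPM in knockout libraries and to 158 and 163 CPM in wild-type libraries, of which Ighm, also transcribed in T cells as a germline transcript, took 248, 226 and 224 CPM in knockout libraries and 146 and 131 CPM in wild-type libraries. Pax5 and Ebf1 were between 0 and 0.465 CPM in every library. Of these B cell markers 0 of 10 tested were called, 7 lay above 0, and the median was 0.26 with all libraries and 0.67 without knockout replicate 2. Markers of thymic stroma summed to 286, 258 and 287 CPM in knockout libraries and to 264 and 247 CPM in wild-type libraries, with Psmb11, Col3a1 and Pdgfra at 0 in all. Pecam1 took 180, 194 and 196 CPM of these sums in knockout libraries and 183 and 161 CPM in wild-type libraries. Of 6 stroma markers tested with all libraries 0 were called and 5 lay above 0. Their median was 0.94 with all libraries and 0.65 without knockout replicate 2. The part of these cells in the rising genes was not tested. In sorted bulk samples, fewer cells of a type and less RNA per cell cannot be told apart.

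Foxp3, the factor that defines Tregs, was low in both genotypes, with 20.6, 51.5 and 46.3 CPM in knockout pre-Tregs and 33.3 and 104 CPM in wild-type pre-Tregs, against 709 and 821 CPM in knockout and 789 and 782 CPM in wild-type de novo Tregs, which have a count table of their own. The pre-Treg groups overlapped, wild-type replicate 2 holding the highest value. The log2 fold change was −0.80 (SE 0.51, edgeR adjusted p = 0.724) with all libraries, −1.03 without knockout replicate 2 and 0.24 without wild-type replicate 2. Il2ra, the alpha chain of the IL-2 receptor, stood at 316, 128 and 257 CPM in knockout libraries and at 119 and 258 CPM in wild-type libraries, and Ctla4 and Tnfrsf18, a pair of Treg receptors, also overlapped.

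Of 31 tested genes of the Treg signature 3 were called and fell without knockout replicate 2, against 0.217% of all genes. These were Ikzf2, Cd83 and Ptger4, all described above. Of the 31, 0 were called and rose, against 0.231% of all genes. The libraries did not overlap for 11 in the lower and 3 in the higher direction, against 13.7% and 13.3% of all genes, and the median was −0.16 with all libraries and −0.17 without knockout replicate 2. Wild-type replicate 2, the library with the most Foxp3, was also the highest for several of them. Lrrc32, which presents latent TGF-beta on Tregs, had 16.4, 54.7 and 33.1 CPM in knockout libraries and 63.0 and 99.5 CPM in wild-type libraries and missed the threshold without knockout replicate 2 (−1.71, edgeR adjusted p = 0.0501), as did the costimulatory receptor genes Tnfrsf4 (−0.93, adjusted p = 0.0742) and Tnfrsf9 (−0.82, adjusted p = 0.0618). With all libraries these 3 genes differed by −1.22, −0.68 and −0.54. Socs2, a feedback inhibitor of cytokine signalling, stood at 6.72, 4.84 and 7.97 CPM in knockout libraries and at 1.78 and 3.27 CPM in wild-type libraries (1.54 without knockout replicate 2, adjusted p = 0.120, and 1.36 with it). Of 28 effector Treg genes tested 0 were called, with medians of 0.17 in both fits.

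Survival genes gave 1 call among 27 tested without knockout replicate 2, that of Bcl2a1d, which fell, against 0.217% of all genes. Bcl2l1, which encodes Bcl-xL, stood at 62.5, 70.1 and 69.3 CPM in knockout libraries and at 111 and 113 CPM in wild-type libraries. The groups were well apart, yet the difference of −0.77 (SE 0.14) without knockout replicate 2 missed the threshold (edgeR adjusted p = 0.0572), and with that library it was −0.74. Fas, a death receptor, stood at 119, 125 and 115 CPM in knockout libraries and at 189 and 206 CPM in wild-type libraries (−0.75 without knockout replicate 2, adjusted p = 0.0608, and −0.72 with it). Bcl2 overlapped between the groups, with 287, 209 and 291 CPM in knockout libraries and 285 and 305 CPM in wild-type libraries.

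S1pr1, the receptor through which mature thymocytes leave the thymus, stood at 136, 225 and 156 CPM in knockout libraries and at 376 and 319 CPM in wild-type libraries. It fell by 1.25 (SE 0.16, edgeR adjusted p = 0.0201) without knockout replicate 2 and differed by −1.01 with it. It was the 1 called gene of 22 on the list of egress and naive homing, against 0.217% of all genes called lower. The libraries did not overlap for 5 of the 22 in the lower and 1 in the higher direction, against 13.7% and 13.3% of all genes. Ms4a4b, a membrane protein of mature T cells, stood at 566, 379 and 422 CPM in knockout libraries and at 907 and 807 CPM in wild-type libraries but was not called (−0.79 without knockout replicate 2, adjusted p = 0.0897, and −0.91 with it), and Ccr7 overlapped.

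Of 35 proliferation genes tested, 33 lay above 0 with all libraries and 35 without knockout replicate 2, with medians of 0.37 and 0.29, and 0 were called. For 22 of the 35 all knockout libraries were above both wild-type libraries, against 13.3% of all genes, and for 0 they were below, against 13.7% of all genes. Their sums were 6647, 7019 and 6086 CPM in knockout libraries and 5205 and 4889 CPM in wild-type libraries. Mki67, the nuclear antigen of cycling cells, stood at 262, 229 and 220 CPM in knockout libraries and at 190 and 170 CPM in wild-type libraries (0.43 without knockout replicate 2, edgeR adjusted p = 0.315, and 0.40 with it), and Mcm6, a subunit of the replicative helicase, at 741, 620 and 685 CPM in knockout libraries and at 452 and 566 CPM in wild-type libraries.

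Of 35 interferon response genes tested 0 were called, and the median was −0.27 with all libraries and −0.25 without knockout replicate 2. With all libraries 9 of them lay above 0, and without knockout replicate 2 the number was 6. For 12 all knockout libraries were below both wild-type libraries, against 13.7% of all genes, and for 0 they were above, against 13.3% of all genes. Their sums were 4045, 4770 and 4611 CPM in knockout libraries and 6160 and 5415 CPM in wild-type libraries. Ifit1, a translation inhibitor induced by interferon, came nearest to the threshold, with 148, 150 and 176 CPM in knockout libraries and 325 and 274 CPM in wild-type libraries (−0.88 without knockout replicate 2, edgeR adjusted p = 0.0501, and −0.92 with it).

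Other lists moved when knockout replicate 2 was left out. Replication-dependent histone genes, whose mRNAs are short and lack a poly(A) tail, had a median of 1.33 with that library and 0.64 without it, and summed to 180, 410 and 167 CPM in knockout libraries and to 112 and 126 CPM in wild-type libraries. Cytosolic ribosomal protein genes had medians of 0.39 and 0.11 and summed to 7000, 11890 and 7134 CPM in knockout libraries and to 5970 and 7454 CPM in wild-type libraries. Glycolysis genes had medians of 0.31 and 0.10, with sums of 4266, 7860 and 5097 CPM in knockout libraries and of 4321 and 4358 CPM in wild-type libraries. Of these lists 0 members were called in either fit.

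**Figure D3:**
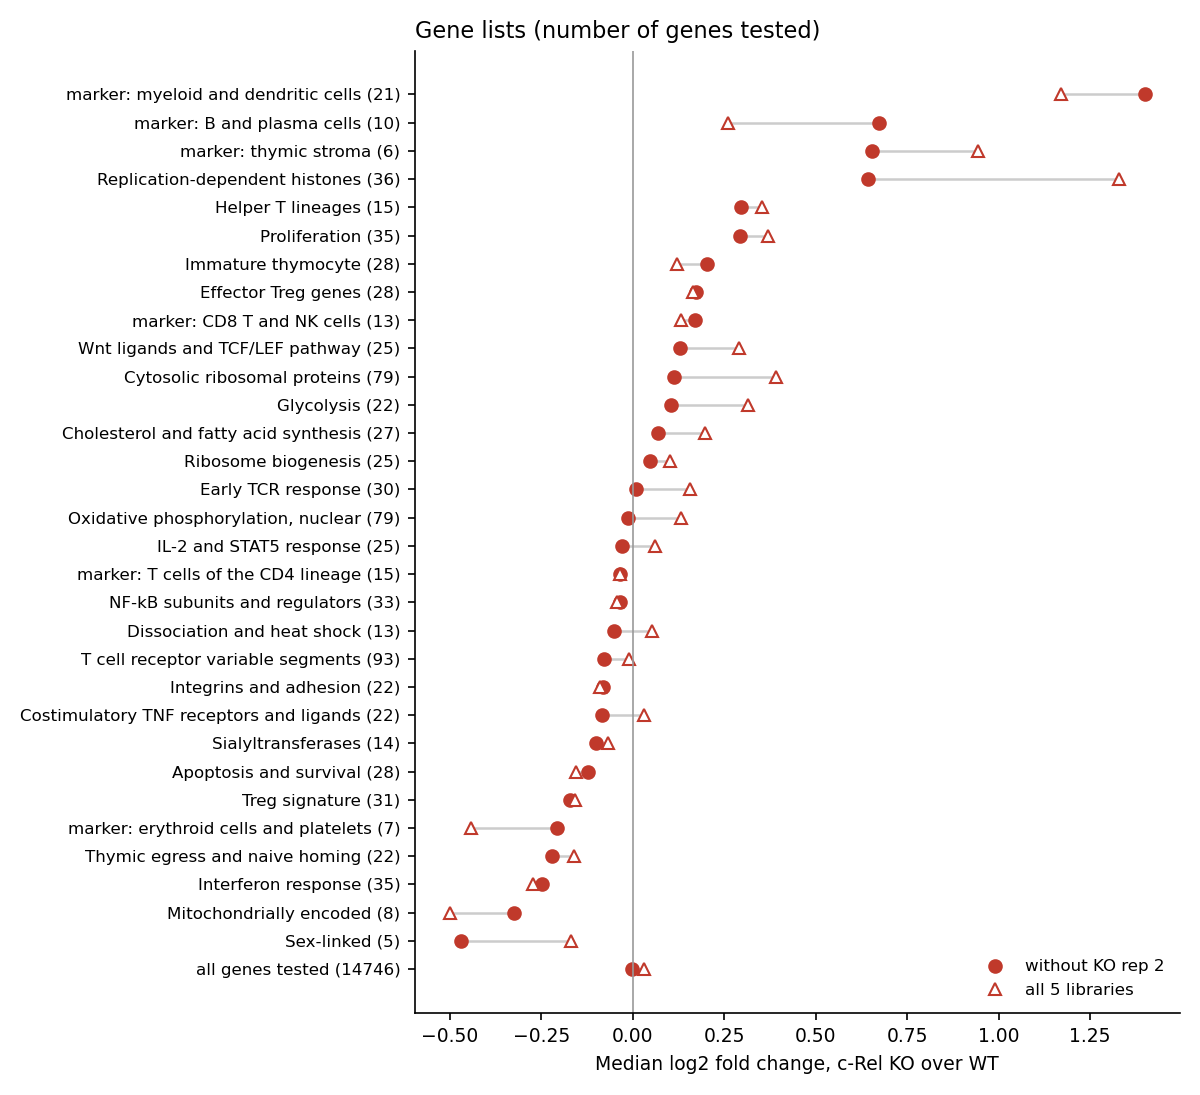
Median log2 fold change of knockout over wild type for each gene list with at least 5 tested members (number tested in brackets), without knockout replicate 2 (filled circles) and with all 5 libraries (open triangles). The histone median is 0.64 without that library and 1.33 with it, the widest gap among the lists plotted, whereas the medians of the proliferation and interferon lists, at 0.29 and −0.25, move little.

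De novo Tregs have libraries of their own, so the called genes of pre-Tregs could be looked up there. In that stage 346 of 11855 genes rose (2.92%) and 420 fell (3.54%). Of the 28 genes that fell in pre-Tregs without knockout replicate 2 and were tested in both stages, 19 also fell in de novo Tregs (67.9% of the 28, and 4.83% of the 393 that fell in de novo Tregs among genes tested in both), and 1, S1pr1, rose there. Of the 27 that rose in pre-Tregs, 1 also rose in de novo Tregs (3.70% of the 27, and 0.304% of 329), namely Il12rb2, and 3 fell there (Tnfaip3, Rgs2 and Ctla2a). Rgs2, a regulator of G protein signalling, and Ctla2a, a cysteine protease inhibitor, were chosen after their values were seen.

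The falling genes had these values in de novo Tregs. Lad1 had 26.8 and 31.9 CPM in knockout and 568 and 589 CPM in wild-type de novo Tregs, a log2 fold change of −4.30 (SE 0.10). Wnt3 had 1.35 and 2.14 CPM in knockout and 43.4 and 37.7 CPM in wild-type libraries (−4.53, SE 0.20), and Sdc4 5.30 and 4.61 CPM in knockout and 33.9 and 34.9 CPM in wild-type libraries (−2.80, SE 0.15). Cd83 fell by 1.93 (SE 0.08) there, close to its pre-Treg value, whereas St8sia6 and Nrp2 had log2 fold changes of −1.42 (SE 0.10) and −1.16 (SE 0.17). All 6 had an edgeR adjusted p of 0.00208 or less in de novo Tregs.

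Whether the genotype effect differed between the stages was tested as an interaction over the 9 libraries of both. It was called for 3 of 12608 genes (0.0238%), and without knockout replicate 2 for 74 of 12351 (0.599%). The test did not call Wnt3 (0.91, edgeR adjusted p = 0.580) or Sdc4 (0.54, adjusted p = 0.514) without knockout replicate 2. Lad1 fell less in pre-Tregs, the difference of the effects being 1.37 (edgeR adjusted p = 0.0210) without knockout replicate 2 and 1.85 (adjusted p = 0.361) with it. Ikzf2 had 162 and 196 CPM in knockout and 180 and 201 CPM in wild-type de novo Tregs, so that its effect there was −0.09. The difference for Ikzf2 was −1.43 (edgeR adjusted p = 0.0183) without knockout replicate 2 and −1.66 (adjusted p = 0.219) with it. S1pr1 had 921 and 926 CPM in knockout and 761 and 742 CPM in wild-type de novo Tregs. Its difference was −1.57 (edgeR adjusted p = 0.00194) without knockout replicate 2 and −1.38 (adjusted p = 0.243) with it.

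The survival genes differed between the stages as well. Bcl2l1 had 30.1 and 33.7 CPM in knockout and 124 and 121 CPM in wild-type de novo Tregs, a log2 fold change of −1.94 there (called), and the difference from the pre-Treg effect was 1.15 (edgeR adjusted p = 0.00986) without knockout replicate 2. Bcl2 had 771 and 802 CPM in knockout and 368 and 329 CPM in wild-type de novo Tregs, a rise of 1.18. Its difference was −1.22 (edgeR adjusted p = 0.00524) without knockout replicate 2. With all 9 libraries neither difference was called (adjusted p = 0.162 for both). Tnfaip3 had 214 and 217 CPM in knockout and 517 and 263 CPM in wild-type de novo Tregs, and the difference of 1.79 (edgeR adjusted p = 0.0313) without knockout replicate 2 is set against that unequal wild-type pair.

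**Figure D4:**
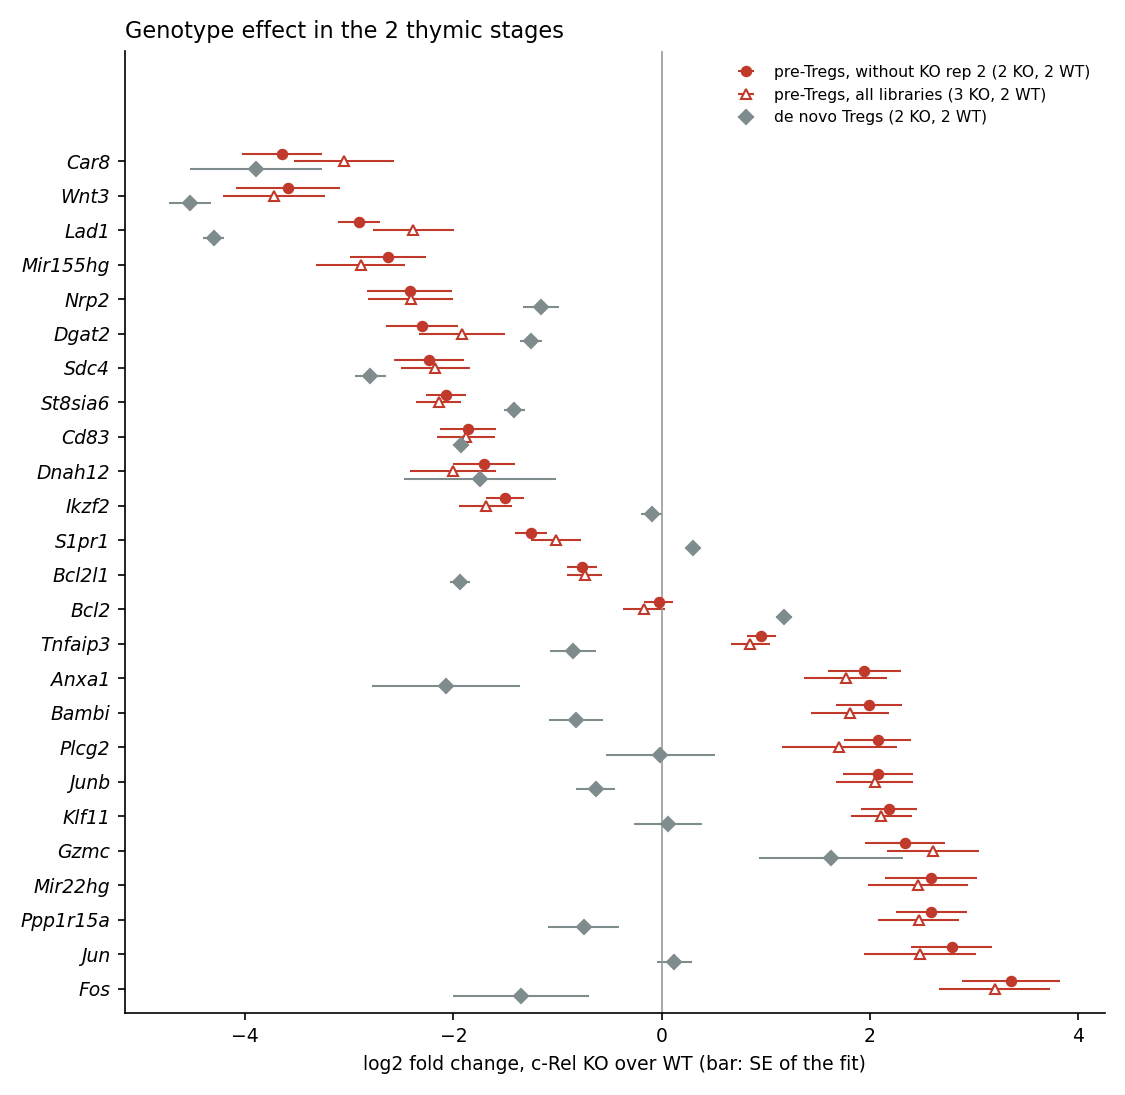
log2 fold change of knockout over wild type, with the SE of the fit as bars, in pre-Tregs without knockout replicate 2 (filled circles), in pre-Tregs with all 5 libraries (open triangles) and in de novo Tregs (grey diamonds). The falling genes from Car8 to Cd83 lie left of 0 in both stages, Ikzf2 lies at −1.50 and −1.69 in pre-Tregs and at −0.09 in de novo Tregs, and the rising genes from Junb to Fos lie right of 0 in pre-Tregs with no called rise in de novo Tregs. Mir155hg and Mir22hg have no de novo value.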

How the data were processed

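Gene expression was measured by RNA sequencing in 5 pre-Treg libraries (3 c-Rel knockout, 2 wild type), with 4 de novo Treg libraries for comparison. The authors deposited raw read counts per gene, not normalized, for 47729 genes in the pre-Treg table and 22048 in the de novo table. Per the submitters' processing notes, STAR 2.5.2, Picard 2.9.0, Subread 1.5.2 with featureCounts, limma and the build GRCm38 were used. Annotation release and strandedness are not given in the sources used, so overlapping and antisense genes cannot be told apart. Per-sample columns with no sample numbered 0.

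Samples were grouped and numbered by their titles. No label says that libraries came from separate animals, so p-values measure the spread between libraries, which may be technical. Every pair of pre-Treg libraries differed at least 2-fold for 6.80% of genes or more, and none was counted as a repeat of another. Gene lists, named genes and the comparison were chosen with earlier results of these data known.

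Counts were filtered with filterByExpr (min.count 10, min.total.count 15), TMM-normalized and tested with edgeR 4.0.16 in R 4.3.3 (quasi-likelihood F-test, Benjamini-Hochberg adjustment, threshold 0.05), for 5 pre-Treg libraries, for 4 without knockout replicate 2, for de novo Tregs, and for the difference of the effects between stages. Alternatives used limma 3.58.1 and DESeq2 1.42.0, other filters and scalings, an offset for gene length (lowess span 0.3) and left-out libraries. Named genes are a fixed set of c-Rel, Treg, NF-kB and survival genes; up to 10 rising and 10 falling genes called in the 4-library fit with the largest change, averaging 5 CPM or more in the higher group and not overlapping over all 5 libraries; the 10 smallest p of the 5-library fit; and up to 3 called members per list. Model names, pseudogenes and receptor segments were left out of the second set. Birc3, Lrrc32, Tnfrsf9, Fas, Ms4a4b, Mcm6 and Ifit1 are in none of these sets, so no rule fixed their choice before their values were seen. The scripts were tested on simulated counts. Floors (3 counts) cover counting error only. Each SE is the absolute log2 fold change divided by the square root of the quasi-likelihood F, and so includes the spread between libraries. The splenic libraries were not used here.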

Additional observations from a re-analysis of the deposited data

Results flagged for a closer look

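The effect of the genotype differed between pre-Tregs and de novo Tregs, by the edgeR test of the difference itself over the 9 libraries, for 3 genes, which were named after their values were seen. Nkg7, a granule membrane protein of cytotoxic lymphocytes, had a difference of 2.95 on the log2 scale (adjusted p = 0.0241), with an effect of 0.13 in pre-Tregs and −2.88 in de novo Tregs. Ccl5, a chemokine, had a difference of 3.53 (adjusted p = 0.0347), with 0.53 in pre-Tregs and −3.06 in de novo Tregs. Rcn1, a calcium-binding protein of the endoplasmic reticulum, had a difference of −1.73 (adjusted p = 0.0346), with −0.38 in pre-Tregs and 1.29 in de novo Tregs. None of the 3 was called by edgeR in pre-Tregs alone, with or without knockout replicate 2.

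Without knockout replicate 2 the test of the difference called 74 genes. Among the named genes, the differences were 2.64 for Jun, 2.68 for Junb and 3.32 for Ppp1r15a, while that for Fos, 4.69, was not called (adjusted p = 0.0918). Ppp1r15a had 101 and 139 CPM in knockout and 298 and 106 CPM in wild-type de novo Tregs, an unequal wild-type pair. Bambi and Anxa1 gave 2.80 and 3.99, both at 10.2 CPM or less in every pre-Treg library. In de novo Tregs Anxa1 was lower still, at 0.478 and 0.0750 CPM in knockout and 0.943 and 1.37 CPM in wild-type libraries. Its effect there, −2.07 (SE 0.71), was not called. Tnfaip3 gave 1.79, Lad1 1.37 and Bcl2l1 1.15. Negative differences were −1.57 for S1pr1, −1.43 for Ikzf2 and −1.22 for Bcl2. With knockout replicate 2 included none of these 11 was called.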

How the results depend on the processing

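With all 5 libraries, where edgeR called 0 genes, DESeq2 called 88, limma-voom with sample quality weights 752 and the fit with no filter 14, and leaving out 1 library gave 0 to 64. The 4-library count of 64 became 254 with DESeq2, 104 with quality weights and 328 with no filter, and 201 to 383 on leaving out a further library. The 3 calls on the difference between stages became 105 with DESeq2 and 0 to 74 on leaving out a pre-Treg library. A replicate block by title number gave 77 calls with 5 libraries and could not be fitted to the 4, since no residual degrees of freedom remain. Knockout replicate 2 has no number in the descriptions, so a block by description number was fitted only to the 4 libraries, where it gave 479. Few residual degrees of freedom remain in either fit. A block by stage and title number gave 0 for the difference. The deviations of same-numbered libraries from their group means had r = −0.168 and −0.158 by title number and 0.122 by description number, so the numbers are not taken to pair the samples. The causes of these changes were not tested. Calls in de novo Tregs stayed within 1.5 times of 766. Of 47 named genes 38 kept their direction under every alternative run on them, which were 15 except that Mir155hg and Mir22hg are not in the de novo table and have no value under the restriction to its genes. The other 9 were not called with all 5 libraries, though Il2ra was with the description block (0.70, adjusted p = 0.0322). Their log2 fold changes changed sign in these ranges on leaving out 1 library: Foxp3 −1.4 to 0.241, Il2ra −0.144 to 0.956, Ctla4 −0.325 to 0.124, Tnfrsf18 −0.529 to 0.233, Nfkb2 −0.28 to 0.167, Rela −0.00335 to 0.316, Nr4a1 −0.0843 to 0.486, Cd5 −0.00349 to 0.568, Ccr7 −0.436 to 0.0265. Ctla4 was also 0.0236 with quality weights, and Rela, Nr4a1 and Cd5 were −0.00986, −0.123 and −0.0161 with the description block. Knockout replicate 2's slope on gene length was −0.163 over genes of at least 1 CPM in every library and −0.228 over genes the de novo table lists. With 2 or 3 libraries a group and 1 of them apart, small differences were not detectable.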

Other observations

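Transcripts of both sexes were read in every pre-Treg library. Xist, transcribed from the inactive X chromosome, stood at 398, 34.9 and 195 CPM in knockout libraries and at 254 and 333 CPM in wild-type libraries, and Ddx3y, a Y-linked RNA helicase, at 31.0, 51.7 and 37.2 CPM in knockout libraries and at 53.8 and 35.2 CPM in wild-type libraries. Of 5 sex-linked genes tested, 0 were called.

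T cell receptor variable segments summed to 1434, 1295 and 1458 CPM in knockout libraries and to 1610 and 1400 CPM in wild-type libraries. Of 93 tested, 0 were called, and the median log2 fold change was −0.01 with all libraries and −0.08 without knockout replicate 2. Hbb-bs, a beta globin, stood at 7.56, 3.99 and 24.4 CPM in knockout libraries and at 3.27 and 42.5 CPM in wild-type libraries, differing more within each genotype than between them.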
